A study of Drosophila melanogaster with 8 samples.

Results

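Of the 8448 cDNA clones on a *Drosophila melanogaster* array, 70 were low in both of the first 2 comparisons between pools of identically treated flies. They were chosen by their measured values: each array's median was subtracted, the 2 spots of a clone were averaged, and a clone was taken when the average of the 2 arrays of pools 1 and 2 and the average of the 2 arrays of pools 3 and 4 both lay below -0.6 on the log2 scale. The values of those 4 arrays are therefore given as a description, with no test. The 4 arrays of pools 5 to 8 took no part in the choice. GEO's platform annotation gives 1 gene symbol for 41 of the 70 clones, several symbols for 1 and none for 28. These last 29 clones are unnamed here. The 41 clones stand for 36 genes, by RefSeq 35 of them protein coding and 1 a long noncoding RNA. Of all clones, 2833 (33.5%) have 1 symbol.

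The study is a like-against-like test of the array. Total RNA came from 8 separate pools of about 240 adult females of the wild-type strain Oregon-R, 4 to 10 days after adult emergence, reared in a cycle of 16 h light to 8 h dark at 60% humidity, all given 2 mL of 99% ethanol topically in a Potter's tower (a bench sprayer) and sampled 6 h later. Pools were hybridized in 4 fixed pairs (1 with 2, 3 with 4, 5 with 6, 7 with 8), each on a normal-label array and on a reversed-label array in which Cy3 and Cy5 were exchanged, so that each label group held 4 arrays. No treatment, strain or sex differed between the pools by their labels.

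A deposited value is the log ratio of the 2 channels of an array. Neither its base nor its direction is stated: base 2 is an inference from how large the values are, and the numerator pool of a pair is unknown. Arrays of opposite label from different pairs, which share no RNA, correlated across clones with a median of -0.157 over 12 combinations, 9 of them below 0. The values were therefore read as 1 pool over the other, which is an inference. Under that reading the average of the 2 arrays of a pair is a pool difference, and a negative value means less signal from the numerator pool. The normal-label value minus the reversed-label value, divided by 2, is the dye component. Ratios carry no level, so the female label of the pools was not checked here, and fewer cells of a type cannot be told apart from less RNA per cell. With 8 arrays, precision is limited by their number. Clone SDs on single arrays ran from 0.283 to 0.607, the highest on the normal-label array of pair 3, and the 2 spots of a clone correlated at 0.251 to 0.569.

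The group carries the label of being rich in testis genes, although its clones were taken by their values alone. The label is examined further on. In the fly testis, spermatocytes switch on a large set of genes that are little used in females, among them duplicated copies of housekeeping genes for translation, mitochondria, the proteasome and the cytoskeleton. These copies serve meiosis and the building of the sperm tail, whose core is a microtubule axoneme flanked by fused mitochondria. Many genes of this set are known only by their CG numbers, and testis cDNA libraries were a main source of the clones that represent them.

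In pair 1 (pools 1 and 2) the 70 clones had a median of -0.84, from -1.87 to -0.61, which is a 1.79-fold lower signal in base 2. In pair 2 (pools 3 and 4) the median was -1.03, from -3.36 to -0.61, or 2.04-fold lower. The median over all 8448 clones was 0.01 in pair 1 and 0.00 in pair 2. Of all clones, 136 (1.61%) lay below -0.6 in pair 1 and 176 (2.08%) in pair 2, so the 70 clones were 51.5% of the first group and 39.8% of the second. No clone lay above 0.6 in both pairs, although 65 did in pair 1 and 62 in pair 2. Only 1 clone was below -0.6 in pair 1 and above 0.6 in pair 2, and 8 clones were the other way round.

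**Figure D1:**
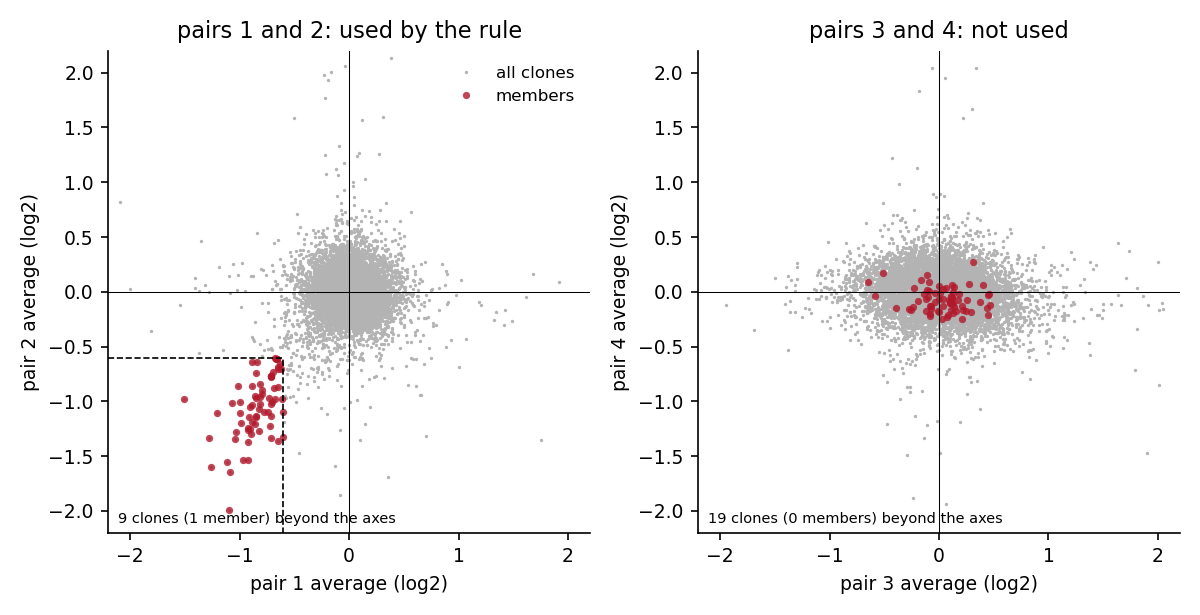
Average log2 ratio of the 2 arrays of a pair, for pair 1 against pair 2 (left) and pair 3 against pair 4 (right), with all clones as grey points, the 70 members in red and the -0.6 threshold dashed. The members fill the lower left corner of the left plot by choice and lie around 0 in the right plot, at medians of 0.07 and -0.08.

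Low values appeared on arrays of both label orientations. The members' medians were -0.78 and -0.92 on the normal-label and reversed-label arrays of pair 1, and -0.87 and -1.25 on those of pair 2. Of the 70, 67 were below 0 on all 4 arrays, against 537 of all 8448 clones (6.36%). Below -0.6 on all 4 were 41. Both spots gave an average below 0 in both pairs for all 70 clones, against 964 of all clones (11.4%). Both spots lay below -0.6 in both averages for 50 members. The same arrays chose the clones, so these counts follow largely from the rule. The 3 members that were not below 0 on all 4 arrays were 2 unnamed clones and 1 of the 2 *CG8517* clones. That *CG8517* clone stood at -3.08 and -2.35 on the normal-label arrays but 0.06 and 0.38 on the reversed-label arrays of pairs 1 and 2. An unnamed clone had -4.02 and -6.18 on the normal-label arrays, against 0.29 and -0.53 on the reversed-label arrays. Its -6.18 in pair 2 averaged 2 unlike spots, at -3.38 and -8.99, and its pair 2 average of -3.36 was the lowest of the members. These 2 clones hold the lowest normal-label values among the members in both pairs, and their averages rest mainly on those arrays. The other unnamed clone was above 0 only on the normal-label array of pair 2, at 0.38.

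**Figure D2:**
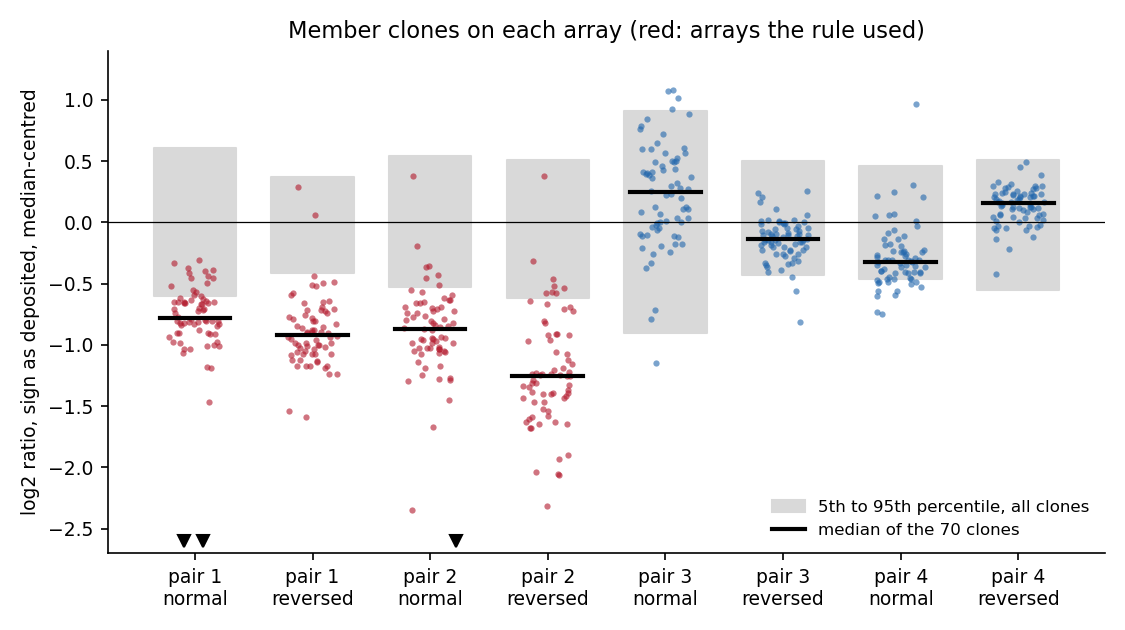
Log2 ratio of each of the 70 member clones on the 8 arrays, sign as deposited, with the median as a black bar and the 5th to 95th percentile of all clones as a grey box; triangles are values below the axis. Medians lie between -1.25 and -0.78 on the arrays of pairs 1 and 2, and between -0.32 and 0.24 on those of pairs 3 and 4.

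Among the members with a known role, *eIF4E5*, a paralogue of the cap-binding translation factor eIF4E known for its expression in testis, was among the lowest. Its clone gave -1.19 and -1.05 on the normal-label and reversed-label arrays of pair 1, -1.45 and -1.65 in pair 2, 0.50 and -0.07 in pair 3, and -0.75 and 0.24 in pair 4. All 4 values of the first 2 pairs were thus low, and the 4 later values lay on both sides of 0. *Fum4*, a paralogue of the mitochondrial enzyme fumarase, which hydrates fumarate to malate in the citric acid cycle, gave -1.01 and -0.93 in pair 1, -1.01 and -2.06 in pair 2, 0.60 and -0.16 in pair 3, and -0.31 and -0.03 in pair 4. *tomboy20*, a paralogue of the import receptor Tom20 of the outer mitochondrial membrane and known from the male germline, gave -0.65 and -1.13, then -0.78 and -1.29, then 0.38 and -0.14, and last -0.11 and 0.02, in the same order. The 3 genes had means over pairs 1 and 2 of -1.34, -1.25 and -0.96, and each was below -0.6 on all 4 arrays of those pairs. On the arrays of pairs 3 and 4 only the value of -0.75 for *eIF4E5* on the normal-label array of pair 4 was below -0.6.

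*TTLL6B* belongs to the tubulin tyrosine ligase-like enzymes, which add glutamates to tubulin tails, a modification known from axonemes. Its averages were -0.61 in pair 1, -0.98 in pair 2, 0.12 in pair 3 and -0.00 in pair 4. Further members have a known role or a telling synonym. *Grasp65*, whose product stacks Golgi cisternae, had averages of -0.85, -0.64, -0.27 and -0.15 in pairs 1 to 4. *kek4*, of the kekkon family of transmembrane proteins with leucine-rich repeats and an immunoglobulin domain, had -0.69, -0.87, 0.11 and -0.17. *CG2574*, listed by RefSeq with the synonym Ube2E2, a name of ubiquitin-conjugating enzymes, had -0.86, -0.95, -0.00 and 0.05. *CG14297*, with the synonym LMW-PTP, a low-molecular-weight protein tyrosine phosphatase, had -0.72, -0.77, 0.14 and -0.14. *CG8476*, with the synonym Dnajb4, a name of DnaJ co-chaperones, had -0.70, -1.01, -0.07 and -0.13. In pairs 3 and 4 these 6 clones lay between -0.27 and 0.14. Their averages in pairs 1 and 2 were below -0.6 by the rule.

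The 2 lowest named clones belong to *CG3494* and *CG31639*, whose roles are not described here. *CG3494* gave -1.47 and -1.06 on the arrays of pair 1, -1.30 and -1.90 in pair 2, 0.26 and -0.10 in pair 3, and -0.73 and 0.32 in pair 4 (normal-label value first). *CG31639* had averages of -1.09, -1.64, -0.08 and -0.13 in pairs 1 to 4. Both clones were below -0.6 on each array of pairs 1 and 2. Further means over pairs 1 and 2 were -1.23 for *CG15461*, -1.19 for *CG7202*, -1.08 for *CG31538*, -1.05 for *CG2750* and *CG8526*, -1.04 for *lky*, -1.03 for *CG8851* and *CG5653*, -0.98 for *CG43329*, -0.97 for *CG12853*, -0.93 for *CG10969*, -0.91 for *CG12917* and -0.88 for *CG15196*. The clone of *lncRNA:CR32658*, the only noncoding gene among the members, had -0.85 in pair 1 and -0.74 in pair 2. Genes with more than 1 member clone were *CG12902* (3 clones, at -1.09, -1.02 and -0.67), *CG33704* (2, at -1.08 and -0.99), *CG30430* (2, at -0.95 and -0.71) and *CG8517* (2, at -1.25 and -0.76).

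The threshold cut through a continuous range. The named members nearest to it were *CG12853*, *CG2854* and *CG32099*, whose higher average was -0.61 each. The 5 named clones just outside, which are also those most like the members by the higher of their 2 averages over these 4 arrays, were *CG12860* (-0.60 in pair 1, -1.19 in pair 2), *CG31468* (-0.80, -0.59), *CG32081* (-0.58, -0.97), *CG32148* (-0.57, -0.70) and *CG7848* (-0.56, -0.71). In pairs 3 and 4 these 5 clones stood at -0.66 to 0.22 and at -0.10 to 0.19.

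Pairs 3 and 4 tested the same clones in pools that the choice had not used. In limma's moderated test of the pool difference, with all 8 arrays in 1 fit and Benjamini-Hochberg adjustment over 8448 clones, 0 of the 70 members passed 5% in pair 3, against 3.20% of all clones (270). That background was not stable: 2 clones passed without pair 1, 3 without pair 2 and none with arrays scaled to one spread, and 0 members passed in each case. The smallest adjusted p among the members was 0.148. Their values in pair 3 had a median of 0.07, from -0.65 to 0.46, and 28 of 70 were below 0 (40.0%), against 49.3% of all clones. At an unadjusted p under 0.05 there were 5 members (7.14%), against 23.8% of all clones: 4 below 0, where 11.2% of all clones were, and 1 above, where 12.6% were. Low values of *CG8517* (-0.59, limma adjusted p = 0.148), in the clone that was below 0 on all 4 arrays of pairs 1 and 2, *CG9072* (-0.51, limma adjusted p = 0.153) and *CG7886* (-0.39, limma adjusted p = 0.199) were among these and did not pass.

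In pair 4 no member passed the limma test (smallest adjusted p = 0.89), and none had an unadjusted p under 0.05, against 0% of all clones after adjustment and 5.36% before. The members' median was -0.08, from -0.25 to 0.27, and 54 of 70 (77.1%) were below 0, against 50.3% of all clones. That median rests on both arrays together: leaving out its reversed-label array gave -0.51, and leaving out its normal-label array gave 0.30. None of the 70 was below -0.6 in pair 4 and 1 was in pair 3, where 0.627% and 3.84% of all clones were. For the mean of both pairs, 0 of 70 members passed in limma (smallest adjusted p = 0.367, 1 at an unadjusted p under 0.05), as did 0% of all clones, of which 13.6% had an unadjusted p under 0.05. A p that misses the threshold does not show equal pools, so the intervals matter. The 95% interval of the mean of both pairs lay wholly above -0.6 for 66 of 70 members, that of pair 3 for 58 and that of pair 4 for 43. The share over all clones was not worked out, so these counts do not set the members apart from other clones. For *eIF4E5* the intervals were -0.36 to 0.79 in pair 3 and -0.82 to 0.32 in pair 4, and only the second reached below -0.6. The members' median standard error was 0.20 in each pair, against 0.16 over all clones. Each pair has its own coefficient and the dye term is shared, so the residual spread, before moderation, is how a clone's dye component varied between pairs. The members' median dye component was -0.24 in pair 4, against 0.09, 0.19 and 0.20 in the other pairs. That spread also draws on the arrays that chose the clones, so the standard errors, p-values and intervals are not independent of the choice. Both arrays of a pair carry the same RNA, so these tests speak of these pools only.

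**Figure D3:**
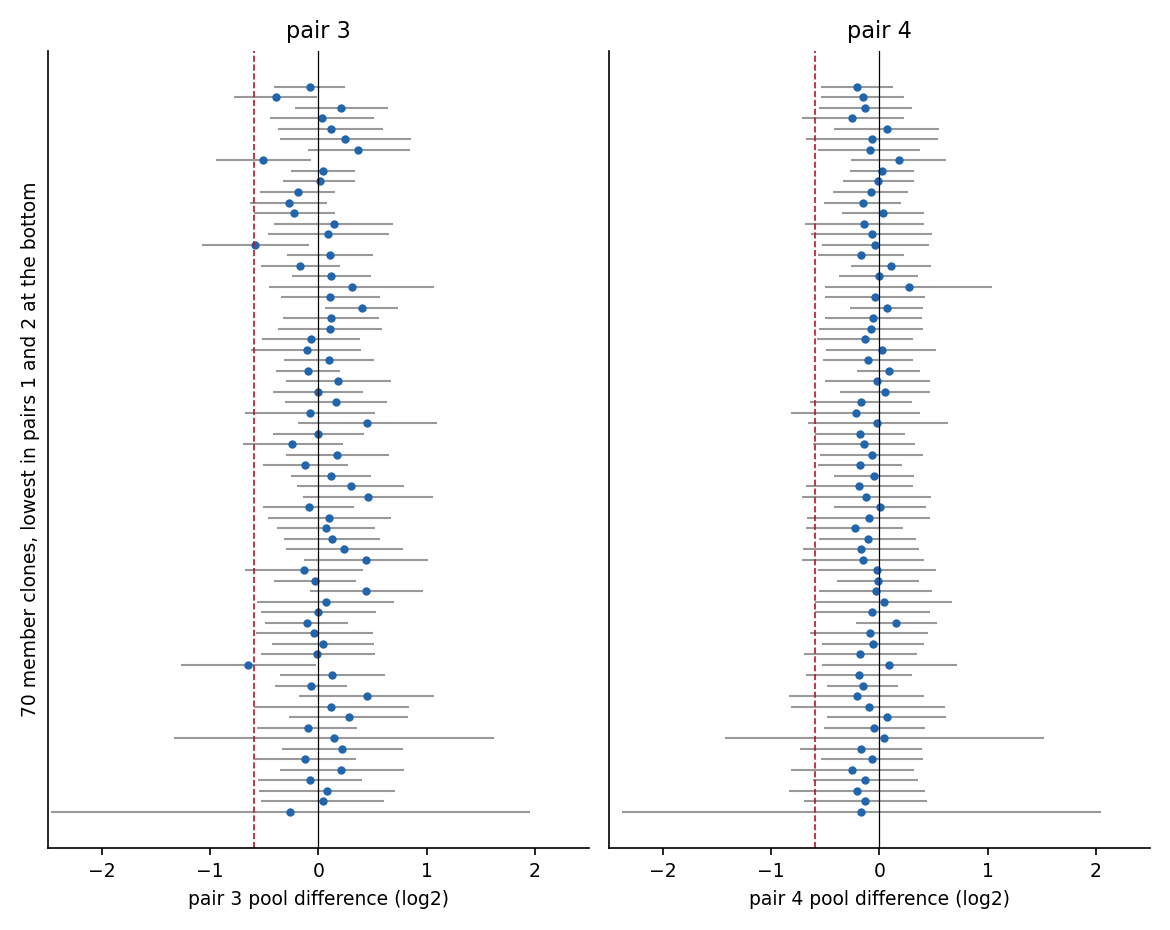
Pool difference (log2) of each of the 70 member clones in pair 3 and in pair 4, which the choice did not use, with the 95% interval of the limma fit as a grey line, 0 in black and -0.6 as a dashed red line. Points lie between -0.65 and 0.46 in pair 3 and between -0.25 and 0.27 in pair 4.

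The members moved together on single arrays of pairs 3 and 4 as well, but with opposite signs on the 2 arrays of a pair. On the normal-label array of pair 4 their median was -0.32 and 61 of 70 were below 0, while on the reversed-label array it was 0.15 and 57 were above 0. Both held for 54 members (77.1%), against 27.8% of all clones. In pair 3 the order was turned: the median was 0.24 on the normal-label array (49 above 0) and -0.14 on the reversed-label array (59 below 0). Both held for 43 members (61.4%), against 19.9% of all clones. These counts are a description, since clones of 1 array are not independent replicates.

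The dye component had medians over the members of 0.09, 0.19, 0.20 and -0.24 in pairs 1 to 4, so pair 4 stood opposite to the others. Without pair 4 the members' median of the component over the pairs was 0.16, against 0.05 with it. The dye components of pairs 1 and 2 come from the arrays that chose the clones, so these values are a description and no test of the members is given.

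Other clones of the same genes sit in different spots of the same arrays, and by the rule they were not low enough to be members. Of the 36 genes, 19 had further clones on the array, 52 in all. Their medians were 0.00 in pair 1 and -0.03 in pair 2, and 15 of 52 (28.8%) were below 0 in both pairs, against 23.7% of all clones. Below -0.3 in both pairs were 4 of 52 (7.69%), against 1.47% of all non-members and 5.22% of the non-members of intervals 18 to 20, a stretch of clone numbers described further on that holds 49 of the 52. *CG12902* had 14 clones: the 3 members lay at -1.09, -1.02 and -0.67 as means over pairs 1 and 2, and the other 11 ran from -0.46 to 0.28 with a median of 0.05. *lncRNA:CR32658* had 9 clones, 1 of them a member at -0.79. Its other 8 ran from -0.18 to 0.20. Clones annotated to 1 gene thus held both low values and values near 0.

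Single further clones lay near 0 for *CG31639* (-0.11 beside -1.37), *CG15461* (0.05 beside -1.23), *CG7202* (0.03 beside -1.19), *CG31538* (-0.07 beside -1.08), *CG8526* (-0.00 beside -1.05), *CG2574* (-0.05 beside -0.90), *lky* (0.10 beside -1.04) and *CG7886* (0.08 beside -0.64). The gene with the most similar clones was *CG30430*. Its other 3 clones stood at -0.61, -0.55 and -0.23, and all 5 of its clones were below 0 in both pairs, as were all clones of 3 of the 19 genes. *CG8517* was mixed, with 6 other clones from -0.62 to 0.31. In 16 of the 19 genes every other clone had a mean above -0.3.

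**Figure D4:**
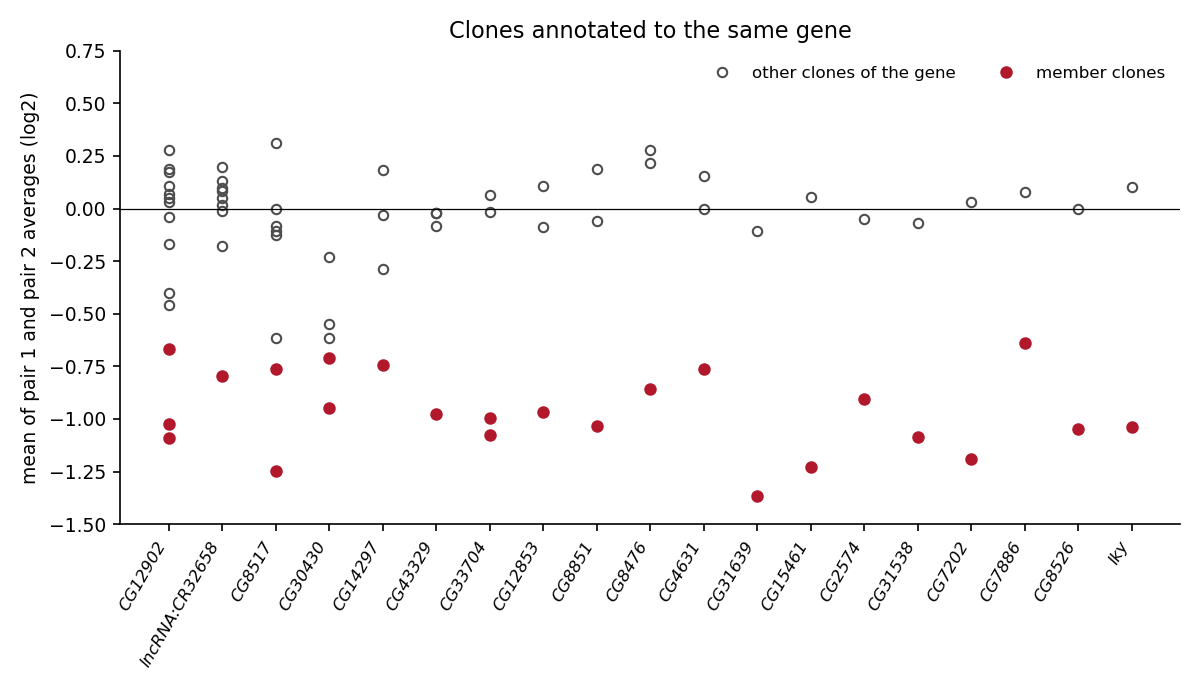
Mean of the pair 1 and pair 2 averages (log2) for every clone of the 19 genes that have both member clones (red) and other clones (open circles). The other clones of most genes lie around 0, with a median of 0.05 in *CG12902*, and those of *CG30430* lie between -0.61 and -0.23.

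The label of the group was checked against a list of 106 genes known for male germline expression, of which 20 had a clone, 37 clones in all. The list was drawn up with earlier results of these data known, and it is not complete: it leaves out *eIF4E5* and *tomboy20*, which are members. None of the 37 was a member, against 70 of all 8448 clones. Their medians were -0.03 in pair 1 and 0.06 in pair 2. Of the 37, 9 (24.3%) were below 0 in both pairs, against 23.7% of all clones. None was below -0.3 in both, against 2.28% of all clones. With members and such low clones this rare, counts of 0 in 37 clones do not set the list apart from other clones. *betaTub85D*, the beta-tubulin of the sperm tail, was above 0 in all 4 pairs, at 0.34, 0.25, 0.40 and 0.24. *dj* (don juan), a sperm tail protein, stood at -0.00 and -0.39 in pairs 1 and 2, and *ocn* (ocnus), a testis protein, at -0.30 and -0.03. The 7 clones of *S-Lap7*, a sperm leucyl aminopeptidase, ran from -0.23 to 0.05 in pair 1 and from -0.32 to 0.46 in pair 2. The lowest clone of the list in pair 2 was 1 of 3 of *salto*, at -0.62 with -0.24 in pair 1. These listed genes were thus not low as a group, while some members are known from the testis. Since the list does not settle whether the 70 clones represent testis genes, they are described here by their rule.

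Markers of other male and female tissues were few on the array. The 3 clones of 2 accessory gland genes (*Acp36DE* and *Acp53C14a*) had medians of -0.21 and -0.01 in pairs 1 and 2, with 1 *Acp53C14a* clone at 1.08 in pair 2. The dosage compensation list (*roX1*, *roX2*, *msl-2*) had no clone with a symbol. Female germline, eggshell and yolk genes had 7 clones of 6 genes, with medians of 0.12 and 0.13. None of them was below 0 in both pairs, against 23.7% of all clones. Muscle (5 clones) and head and nervous system (6 clones) had medians of -0.27 and 0.18, and 0.04 and 0.12, also with none below 0 in both. None of these clones was a member, against 70 of all 8448 clones. The part of such tissues in the low values was not tested.

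Where the clones sat in the numbering of the array was a feature that most of them shared. The print layout is not given in the sources used here. Counting clone numbers in runs of 264 and cutting each run into 22 intervals of 12 positions, a division chosen after the members' numbers were seen, put 60 of the 70 members (85.7%) in intervals 18 to 20, which hold 1152 clones (13.6%). Interval 19 alone held 31, interval 20 held 18 and interval 18 held 11, and intervals 21 and 22 held none. Members occurred in 30 of the 32 runs, mostly in this 1 recurring stretch of clone numbers, and 10 of the 70 lay outside it. The annotation recurs as well. Over many distances searched, whether a clone has a symbol correlated most with itself at 528 clones, which is 2 runs, at 0.14. The value at a single run is not given, so this does not show that 264 is the length of a run.

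The other 1092 clones of intervals 18 to 20 were not low as a whole. Their medians were -0.04 in pair 1 and 0.01 in pair 2, with 57 (5.22%) below -0.3 in both pairs, against 1.47% of all non-members. The 10 members elsewhere had medians of -0.75 and -0.87 and the same values near 0 in pairs 3 and 4 (0.07 and -0.12). The part of array position in the low values was not tested beyond these counts.

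**Figure D5:**
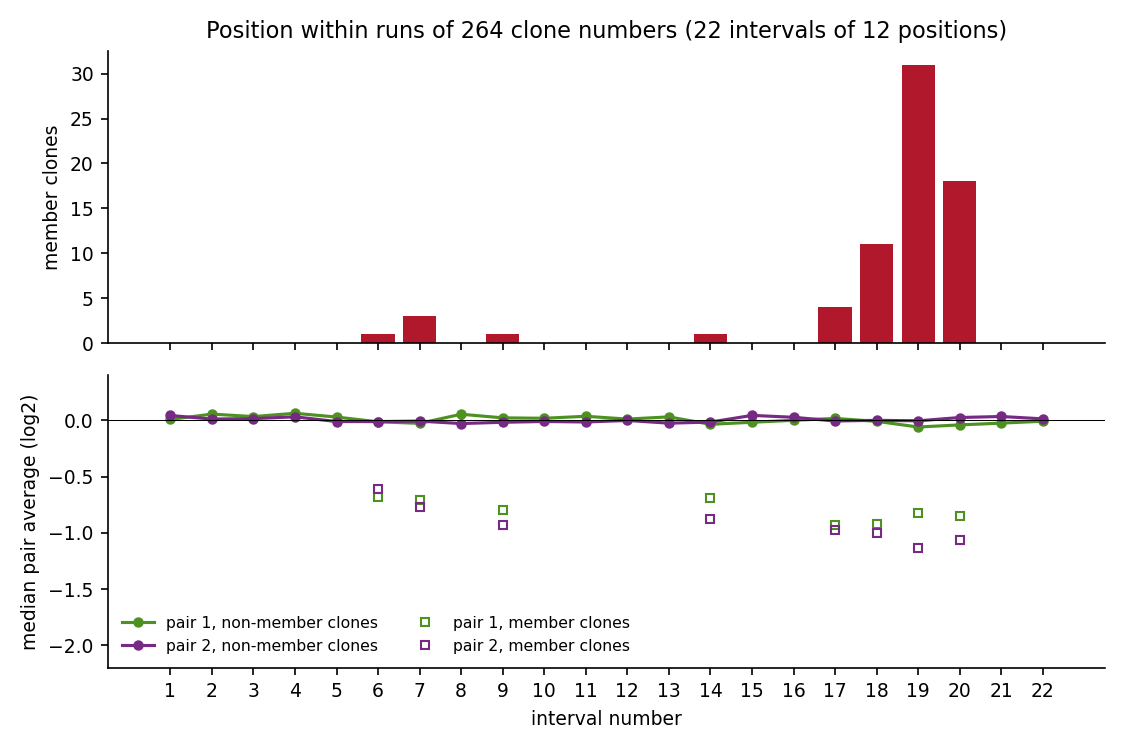
Number of member clones (top) and median average log2 ratio of member (squares) and non-member clones (lines) in pairs 1 and 2 (bottom) by position within runs of 264 clone numbers, cut into 22 intervals. Intervals 18, 19 and 20 hold 11, 31 and 18 members, and the medians of the non-member clones in these intervals lie between -0.06 and 0.03.

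Genes that RefSeq ties to testis library clones were frequent in the same stretch. The library of the spotted clones was not examined. RefSeq lists clone names of the bs or AT series, known as testis cDNA libraries, as synonyms of 133 of the 2377 genes on the array (5.60%) and of 8 of the 36 member genes (22.2%), namely *CG12853*, *CG12902*, *CG2574*, *CG30430*, *CG31538*, *CG31639*, *CG33704* and *Fum4*. Of the 440 genes in intervals 18 to 20 that have no member clone, 103 (23.4%) carried such a name, and of 1970 genes with clones outside these intervals 37 did (1.88%). Of the 37 clones of the male germline list, 25 lay in these intervals. The share of testis library names among the member genes was thus close to that of the other genes of the same stretch.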

How the data were processed

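The values are log2 ratios as the authors deposited them, 16896 spots per array and 8 arrays. The deposited medians lay between -0.0023 and 0.0011. Log base, direction, scanning, background correction and normalization are not stated there or in the labels, and the largest absolute value was 17.5. No value was missing.

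Array medians were subtracted and spots 2k-1 and 2k, annotated alike, averaged. Symbols came from GEO's platform annotation, updated by Entrez identifier through RefSeq. RefSeq also gave the synonyms, with the testis library clone names, and whether a gene is protein coding. Tests used limma 3.58.1 in R 4.3.3 at 5% over all clones. The fit held 4 pair coefficients with a dye term over 8 arrays (3 residual degrees of freedom before moderation). Per the labels both arrays of a pair carry the same pools, so each pair has its own coefficient and the error is technical. The planned test of the dye component over 4 pairs was run but is not reported for the members, since it includes the arrays that chose them. Fits were tested on simulated data. Members, lists and tests were chosen with earlier results of these data known. Named genes were up to 25 members with the lowest mean in pairs 1 and 2, list members, further clones of member genes and clones near the threshold; others were named for their roles after their values were seen.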

Additional observations from a re-analysis of the deposited data

Results flagged for a closer look

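In all, 28 sets of 4 values were examined, and 2 held a value far from the other 3. The sets were the members' medians over each label group, and the dye components over the 4 pairs of the 25 named clones and of the members' median. All sets include pairs 1 and 2, whose arrays chose the clones, so the flags are a description and no test. For unselected sets, chance would flag about 1 in 20. For *CG7202* the dye component was -0.38 in pair 4 against 0.20, 0.22 and 0.31 in the other pairs. For *tomboy20*, the paralogue of the mitochondrial import receptor, it was -0.06 in pair 4 against 0.24, 0.26 and 0.26. In both cases pair 4 was the low value, as in the members' median dye component (-0.24 in pair 4). The cause was not tested.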

How the results depend on the processing

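The number of clones chosen, 70 in the main setting, ran from 50 to 97 under no centring, scaled arrays, quantile normalization, single spots, both spots, and thresholds of -0.5 and -0.7. It fell to 41 clones when each of the 4 arrays had to be below -0.6, which is stricter by construction, and to 14 (2 of them members) with reversed-label arrays turned in sign, where 57.1% lay in intervals 18 to 20. With 1 array left out it ran from 60 to 83, of which 56 to 62 were members. Of the 70 members, 58 were chosen again with the first spot alone and 59 with the second. With scaled arrays 66 were chosen again, and with quantile normalization 65. The count of members passing in limma stayed at 0 in all 20 alternatives for pair 3, 20 for pair 4 and 19 for their mean, with adjusted p no lower than 0.0976, 0.638 and 0.224. In pair 4 and in the mean, no clone of the whole array passed in any setting that kept both arrays of the pairs tested. A count of 0 members was fixed in those settings, so it is no measure of stability. With the arrays of pairs 3 and 4 alone in the same model, 0 members and 4 of all clones passed in pair 3. Leaving out 1 pair or array moved the members' median in pair 4 between -0.51 and 0.30, in the mean of both pairs between -0.20 and 0.18, in pair 3 between -0.13 and 0.25 and in the dye component between 0.00 and 0.16; the extremes of pair 4 came without its reversed-label and normal-label array. The dye median was -0.47 with reversed-label arrays turned. The 270 calls among all clones in pair 3 depended on the setting: 297 with robust moderation, 268 without centring, 8 and 0 with the first or second spot alone, and 0 with scaled arrays, quantile normalization, no dye term or turned arrays. They fell to 2 without pair 1 or either of its arrays, 3 without pair 2 or either of its arrays, 157 without pair 4 or either of its arrays, and, of the arrays of pair 3, 23 when the normal-label one was left out and 87 when the other was; these leave fewer residual degrees of freedom. Calls of the dye component are not given, since it uses the arrays that chose the clones; among all clones they went from 723 to 0 with 8 arrays and no replicate block. The other, non-member clones of member genes that lay below -0.3 in both pairs numbered 1 in the second spot alone, against 4. Leaving out single arrays for the dye component was not run, since it drops the pair. The alternatives for position and for further clones were chosen after seeing the data.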
